A study of Arabidopsis thaliana with 18 samples.

Results

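Long internally terminated TIF-clusters are transcripts that started at or upstream of the start codon of a coding gene, ran for at least 350 nt, and ended before its stop codon. A TIF-cluster is a group of read pairs from TIF-seq (transcript isoform sequencing), which reads the capped 5′ end and the polyadenylated 3′ end of the same RNA molecule. Members had to lie on the strand of exactly 1 coding gene that overlaps no other coding gene. The stop codon used was the outermost one of any annotated isoform. The rule found 3497 members among 259431 TIF-clusters in 6 lists, of which 180632 could be placed on a single gene of this kind. The members came from 829 genes and held 47594 read pairs.

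The 6 lists came from whole *Arabidopsis thaliana* seedlings aged 14 days, all in the Col-0 background: wild type, *hen2-2*, *spt16-1* and *ssrp1-2* grown at 22 °C, and wild type and *hen2-2* moved to 4 °C for 3 h before harvest. *hen2-2* lacks HEN2, an RNA helicase that works with the nuclear exosome, the main RNA-degrading complex of the nucleus. *spt16-1* and *ssrp1-2* are deficient in the 2 subunits of FACT, a histone chaperone that travels with RNA polymerase II. Each list merged 2 libraries, so no spread between replicates could be measured and no test between lists was made. Intervals are 95% intervals for counting error only (Wilson intervals for shares). The same 3′ end was often counted in several lists or with several 5′ ends. Joined within 20 nt, the 3′ ends of the members gave 1330 sites. Intervals over members treat such repeats as independent and can be too narrow. The lists held between 410655 and 924907 read pairs, the fewest in *hen2-2* at 4 °C. RBCS1A, RCA and CAB3, genes of green tissue, had read pairs in every list. Of the cold genes, COR78 (LTI78) had 55 read pairs in wild type at 22 °C and 112 at 4 °C, and 72 and 100 in *hen2-2*. COR15A had 55 and 48 in wild type, and 30 and 37 in *hen2-2*. COR47 had 1215 and 1441 in wild type, and 1522 and 1349 in *hen2-2*. These are raw counts from lists of unlike depth. The list totals were lower at 4 °C, with 690139 against 843121 in wild type and 410655 against 794299 in *hen2-2*. A lower raw count at 4 °C therefore does not by itself show a fall. HEN2 had 0 read pairs in both *hen2-2* lists and also in wild type at 4 °C, and SSRP1 had 0 in *ssrp1-2* and also in *hen2-2* at 4 °C. SPT16 had 31 read pairs in *spt16-1* and 30 in wild type at 22 °C, so its count did not mark that mutant. Every list is a mixture of all seedling tissues, in which fewer cells of a type and less RNA per cell cannot be told apart.

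The 3′ end of a plant mRNA is made by cleavage and polyadenylation. The machinery reads a diffuse set of signals, in which an A-rich element before the cleavage site, with AATAAA as its best match, is flanked by T-rich sequence. When this happens inside a gene, the transcript loses its downstream exons. An end inside an intron keeps intron sequence as its last part, and translation can then run on into the intron until a stop codon. Known plant cases include *FCA*, *FPA*, *IBM1* and the disease resistance gene *RPP7*. An end inside a coding exon usually leaves no stop codon in frame. Oligo(dT) primers, which TIF-seq uses to copy the RNA, can also anneal to runs of A inside a transcript.

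The members fell into 3 classes, a division made after the values were seen. The complete isoform class, with 1435 TIF-clusters, held the whole coding sequence of an annotated isoform but ended before the outermost stop codon. In some genes that isoform was the one with the longest coding sequence. The other 2 classes were truncated, because they held the whole coding sequence of no annotated isoform. Of the truncated ones, 297 ended in an intron and 1764 in an exon, and 1 ended outside both.

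The sequences at the leading 3′ ends show how the classes differ. For each class, the 5 genes with most read pairs in that class are shown, each at its 3′ end site with most read pairs. Each run holds 14 nt up to the recorded 3′ end in lower case, followed by the 16 nt after it in capitals, read 5′ to 3′ on the strand of the gene from the RefSeq TAIR10.1 genome. The first 5 are truncated members that ended in an intron.
AT1G56500 (chr1:21161896-21161925, plus strand): ccatgaccttttctTCACCTACTTTATAGT
emb2726 (chr4:14319177-14319206, plus strand): atcatttaaaaagaTTATACAATGTTTGTA
AT3G48030 (chr3:17726752-17726781, minus strand): atttaaggaaattcTCCGAAAACCATCTTT
AT4G23670 (chr4:12333272-12333301, minus strand): catattttgcatttATGTTTACATATGAAA
BXL1 (chr5:20015087-20015116, minus strand): tctctattttcttaCAATTTAAGTGGTTTT

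The next 5 are truncated members that ended in an exon. Here A and G make up most of the letters on both sides of the end.
CXIP4 (chr2:12416299-12416328, minus strand): tgaggaagagggaaGGAGTAAGAGAAGAAA
TIC (chr3:7913421-7913450, plus strand): aggagggagtaataAGAAGGATCGAGATCG
COR47 (chr1:7085135-7085164, minus strand): gtgaggaaaagaagGAGAAGAAGAAGAAGA
AT3G25840 (chr3:9456259-9456288, minus strand): cggaaggaagtaagCGGAGAGATAAAGATA
BIP1 (chr5:10540873-10540902, minus strand): cgacaaattggaagGAGATGAAAAGGAGAA

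The last 5 belong to the complete isoform class, and T-rich stretches are frequent among them.
LHCB2.1 (chr2:1823334-1823363, minus strand): atgatttttattttGTGGGTACTTTTTTTT
AT4G14320 (chr4:8242533-8242562, minus strand): ttatggatgtctttTAATTTGGTTAACCAA
UGT88A1 (chr3:5619204-5619233, minus strand): tttatatcgtttgtCGTTGTCCTGTGTGCG
GHS1 (chr3:10019028-10019057, plus strand): ttgcatttgttgggGCTCTCCATGGATGCT
CAM7 (chr3:15664381-15664410, minus strand): cgagtcatgaccacTTGATGATGTTATTTT

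The poly(A) signal AATAAA is shown in capitals for the truncated intron end and the 3 complete isoform ends with most read pairs that held it in the 30 nt up to the 3′ end. The search covered the strand of the gene only. Of the 8 intron sites with this signal, 7 had 3 read pairs, so only AT3G62330, with 7, is shown, on the first line.
AT3G62330 (chr3:23064357-23064386, minus strand): acagttctgaagtaAATAAAtgtttactga
AT4G18810 (chr4:10322442-10322471, minus strand): tgacgacaacAATAAAgattgtaccttttg
AT3G03270 (chr3:761976-762005, minus strand): attAATAAAtttcagttaaatgatatttac
AT1G80780 (chr1:30359338-30359367, plus strand): ctagcaaaaaattaAATAAAaaatttcctg

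Long internal termination was present in every list at a similar share. Members numbered 693 in wild type, 627 in *hen2-2*, 768 in *spt16-1* and 510 in *ssrp1-2* at 22 °C, and 530 in wild type and 369 in *hen2-2* at 4 °C. As a share of the placed TIF-clusters these were 2.18%, 1.86%, 2.21%, 1.80%, 1.78% and 1.66%. Of the 10128 genes with a placed TIF-cluster, 829 (8.19%) held a member in at least 1 list. In the single lists, in the same order, 4.58%, 4.17%, 4.68%, 3.7%, 3.88% and 3.28% of the genes with a placed TIF-cluster held a member.

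Members made up slightly less of the *hen2-2* lists than of the wild-type lists as deposited. At 22 °C their share was 1.86% (1.72 to 2.01) in *hen2-2* and 2.18% (2.02 to 2.35) in wild type, a log2 ratio of -0.23 (-0.38 to -0.07). At 4 °C it was 1.66% (1.496 to 1.83) against 1.78% (1.64 to 1.94), a log2 ratio of -0.11 (-0.30 to 0.08). Both ratios turned positive, to 0.0037 and 0.097, after each list was reduced to the depth of the smallest list, so neither direction held at equal depth. The placed TIF-clusters include the short internally terminated ones, which were more frequent in *hen2-2*. Without these, the share was 1.98% against 2.20% at 22 °C and 1.80% against 1.79% at 4 °C. Per 100 whole-ORF TIF-clusters there were 2.48 members against 2.77 at 22 °C and 2.34 against 2.21 at 4 °C, so the direction at 4 °C also turned with the denominator. For internally terminated TIF-clusters shorter than 350 nt the log2 ratios were 2.72 (2.54 to 2.90) at 22 °C and 4.63 (4.34 to 4.93) at 4 °C. Around the length limit, the TIF-clusters of 300 to 349 nt numbered 30 in wild type and 19 in *hen2-2* at 22 °C, and those of 350 to 399 nt numbered 31 and 24. At 4 °C the numbers were 8 and 21 at 300 to 349 nt, and 23 and 15 at 350 to 399 nt.

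The classes did not follow the lists in the same way. Intron ends made up 0.195% of the placed TIF-clusters in wild type and 0.184% in *hen2-2* at 22 °C, a log2 ratio of -0.08 (-0.59 to 0.42), and 0.158% and 0.202% at 4 °C, a log2 ratio of 0.35 (-0.24 to 0.94). Exon ends were at 1.19% in wild type and 0.917% in *hen2-2* at 22 °C, a log2 ratio of -0.37 (-0.59 to -0.15), and at 0.788% and 0.704% at 4 °C, a log2 ratio of -0.16 (-0.45 to 0.13). In *ssrp1-2* they were at 0.902%, a log2 ratio to wild type of -0.39 (-0.62 to -0.17), and in *spt16-1* at 1.24%, a log2 ratio of 0.06 (-0.13 to 0.26). They were also lower in wild type at 4 °C than at 22 °C, at 0.788% against 1.19%, a log2 ratio of -0.59 (-0.82 to -0.35). In *spt16-1* the share of intron ends was 0.124% and its log2 ratio to wild type was -0.66 (-1.22 to -0.10), and in *ssrp1-2* they were 0.134% and -0.54 (-1.12 to 0.04). Complete isoform ends stayed between 0.749% and 0.843% in all 6 lists. Each interval covers counting error alone, and variation between libraries was not measured. The ratios of single classes were not recomputed at equal depth or with another denominator, changes that turned the sign of ratios for all members.

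**Figure D1:**
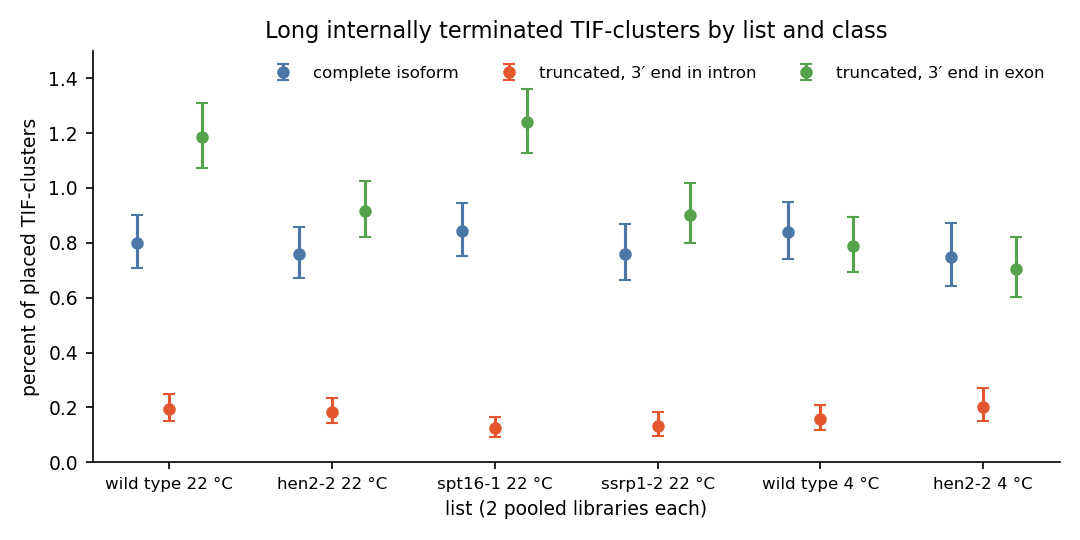
Percent of placed TIF-clusters that were long internally terminated, by list (x axis, 2 pooled libraries each) and class (colour). Points are shares and bars are 95% Wilson intervals. Exon ends ranged from 0.704% to 1.24%, complete isoform ends from 0.749% to 0.843%, and intron ends from 0.124% to 0.202%.

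Most read pairs came from the complete isoform class and from few genes. The 1435 TIF-clusters of this class held 35967 of the 47594 read pairs, in 164 genes, and the 10 leading genes held 82.1% of them. LHCB2.1, a chlorophyll-binding antenna protein of photosystem II, alone held 22067 read pairs, 61.4% of the class. Exon ends held 10341 read pairs in 551 genes, and no gene held more than 4.62% of them. Intron ends held 1283 read pairs in 164 genes, and 98 of these genes had 3 read pairs, the smallest number a list can show.

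Of all members, 1129 (32.3%, 30.8 to 33.9) ended in an intron of the isoform with the longest coding sequence. The classes differed widely, since 832 of the 1435 complete isoform members (58.0%, 55.4 to 60.5) and 297 of the 2062 truncated members (14.4%, 12.95 to 16.0) did so. Among the truncated intron ends, 258 of 297 lay in an intron of every annotated isoform that spans the site, compared with 24 of the 1435 complete isoform members. Exon ends were spread along the gene, with 271 in the first of several exons, 678 between the first and the last, 609 in the last, and 206 in genes of a single exon.

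The members covered a median of 72.6% of the coding sequence. The median was 92.8% for the complete isoform class, 42.5% for intron ends and 46.4% for exon ends. In the complete isoform class the upper quartile was 100%, which is all of the longest coding sequence. The exon ends were widely spread, and their middle 50% ran from 23.5% to 74.3%. In 43 exon ends and 4 intron ends no coding nucleotide was covered, since the 3′ end lay in the leader.

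**Figure D2:**
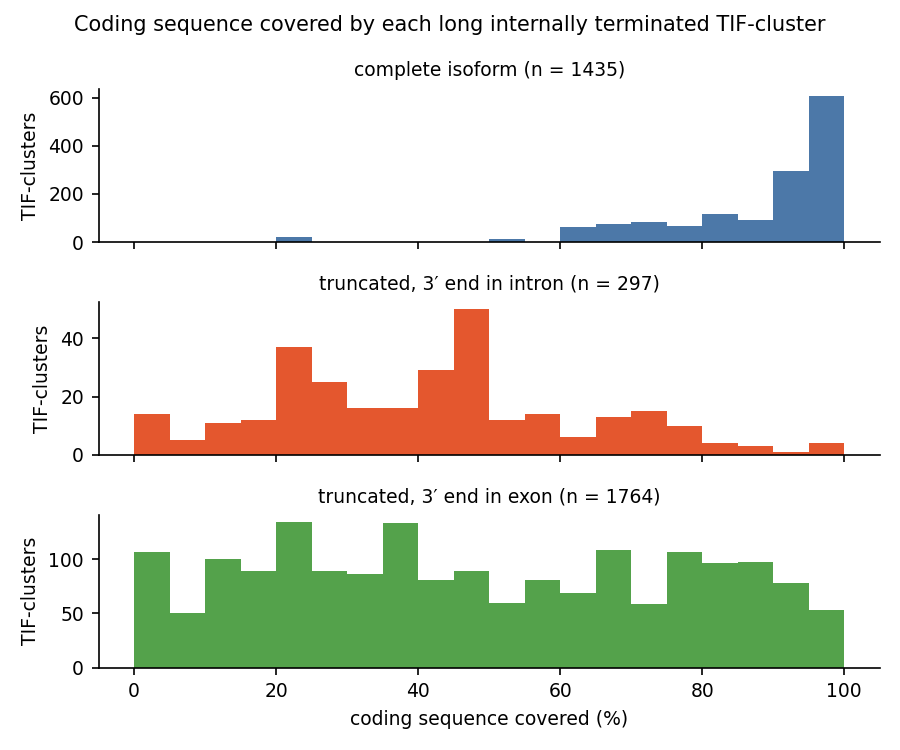
Coding sequence covered (x axis, percent in steps of 5) by the TIF-clusters of each class (y axis, number of TIF-clusters). Complete isoform members gather above 90%, whereas exon ends are spread from 0 to 100%. Medians are 92.8%, 42.5% and 46.4% from top to bottom.

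Introns that held a truncated 3′ end were longer than the other introns of the same genes. Their median length was 306.5 nt in 172 introns, compared with 97 nt in 996 other introns, and the middle 50% ran from 153.75 to 570.25 nt and from 86 to 144 nt. A longer intron has more positions where an end can lie, and the comparison did not allow for this. The ends lay a median of 139 nt from the 5′ splice site. Intron 1 held 94 of the 297 ends and intron 2 held 88. In 243 of the 293 ends that covered coding sequence (82.9%, 78.2 to 86.8), translation read on from the exon met an in-frame stop codon before the 3′ end, after a median of 7 intron codons. Exon ends lay before the stop codon of the coding sequence that was read, so they could hardly meet one, and 2 (0.116%) did. In the complete isoform class the share was 86.6%. Only the isoform with the longest coding sequence was read, so stop codons of other isoforms were missed.

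The sequence around the 3′ ends separated the exon ends from the rest. Whole-ORF TIF-clusters, which span the complete coding sequence, served as the reference, with 141527 of them. In the 30 nt up to the 3′ end, intron ends held a mean of 11.3 T, complete isoform ends 12.3 and whole-ORF ends 12.2, but exon ends 5.94. Low T was not confined to the end. It was 21.3% in exon ends at 50 nt upstream, against 34.0% to 41.5% in the other classes. At 50 nt after the end it was 22.2%, against 35.8% to 36.7%. Exon positions without an end were not measured. AATAAA was present in the 30 nt up to the 3′ end in 3.37% (1.84 to 6.09) of intron ends, 5.16% (4.13 to 6.43) of complete isoform ends, 0.850% (0.516 to 1.40) of exon ends and 6.88% (6.75 to 7.01) of whole-ORF ends. In a window of the same length 200 nt further upstream the shares were 0.673%, 0.279%, 0.794% and 1.11%. For exon ends the share near the 3′ end and the share upstream of it lay within each other's intervals. When hexamers with 1 letter changed were counted as well, exon ends held one in 19.2% (17.4 to 21.1) near the end and 15.9% (14.3 to 17.7) upstream. These shares were 25.9% and 12.8% for intron ends, 32.2% and 14.4% for complete isoform ends, and 36.2% and 17.3% for whole-ORF ends.

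Exon ends were followed by A. In the 10 nt after the recorded end, at least 6 were A in 29.4% (27.3 to 31.5) of exon ends, 2.69% (1.37 to 5.22) of intron ends, 2.37% (1.7004 to 3.29) of complete isoform ends and 2.54% (2.46 to 2.63) of whole-ORF ends. The base profile had a sharp rise of A at nt 7 after the recorded end in every class, to 74.8% for exon ends, 42.8% for intron ends, 46.6% for complete isoform ends and 44.6% for whole-ORF ends. In the *hen2-2* list at 22 °C, A in whole-ORF ends was already at 43.5% at nt 6, compared with 22.8% in wild type. In the window from nt 7 to nt 16, chosen after this profile was seen, 53.8% (51.5 to 56.1) of exon ends were A-rich, as against 7.74% of intron ends, 4.67% of complete isoform ends and 4.73% of whole-ORF ends. The authors had removed TIF-clusters at genomic runs of 6 to 9 A. In the 30 nt from 9 nt before to 20 nt after the end, a run of at least 6 A remained in 1.76% of exon ends, and a run of at least 4 in 30.4%, compared with 11.7% of whole-ORF ends. Priming on A-rich transcript sequence was not tested.

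**Figure D3:**
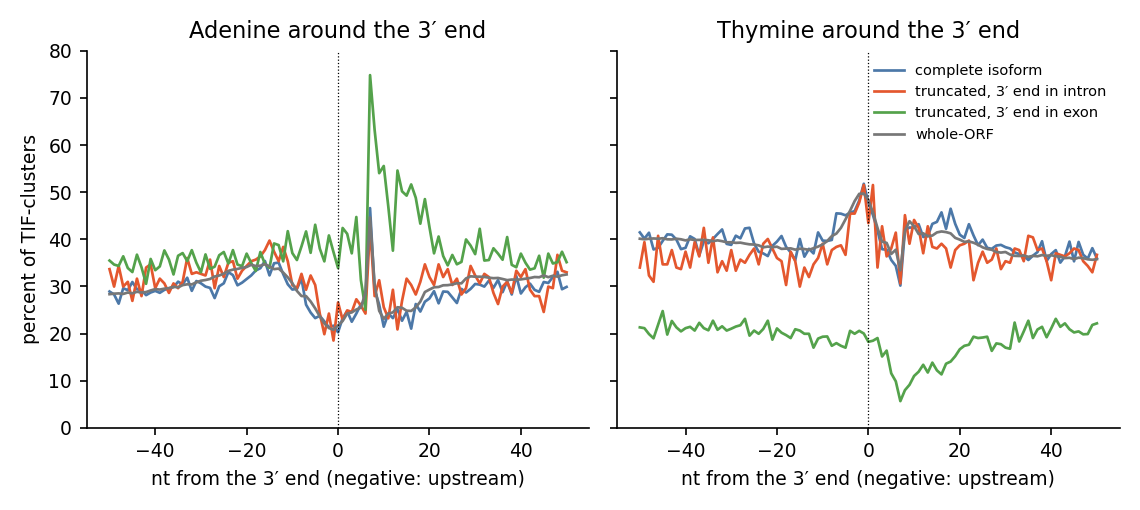
Percent of TIF-clusters with adenine (left) and thymine (right) at each position from the recorded 3′ end (x axis, nt, negative upstream), by class. Adenine at nt 7 reaches 74.8% in exon ends and 42.8% to 46.6% in the other classes, and thymine is lower in exon ends at all positions shown.

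The coding sequence at exon ends was rich in lysine and glutamate codons, which hold only A and G. Codons for other charged residues, and other codons of A and G, were not counted, so the residues cannot be told apart from the base composition. Lysine and glutamate codons (AAA, AAG, GAA and GAG) made up 30.4% of the 10 codons before an exon end and 45.3% of the 10 codons after it. Averaged over the 1676 exon ends read, they made up 21.5% of the whole coding sequence of the gene, so a gene with many ends counted many times. Over the 9528 genes with a whole-ORF TIF-cluster, each counted once, the mean was 13.2%.

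Members mostly shared their start site with full-length transcripts. Where the same list held a whole-ORF TIF-cluster of the gene, a 5′ end within 20 nt was found for 96.7% (93.3 to 98.4) of intron ends, 93.3% (91.9 to 94.4) of exon ends and 80.1% (76.2 to 83.5) of complete isoform ends. Such a whole-ORF TIF-cluster was present for 70.7%, 86.5% and 31.6% of them.

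To see whether the same ends recurred, 3′ ends of a gene within 20 nt were joined into sites. Of 1330 sites, 466 (35.0%, 32.5 to 37.6) were held by at least 2 lists, as against 66.6% of whole-ORF sites. The share was 57.5% for the complete isoform class, 32.1% for exon ends and 16.6% for intron ends. A site with fewer than 6 read pairs cannot be in 2 lists, because a list shows at least 3. At 6 to 10 read pairs, 76.9% (63.9 to 86.3) of complete isoform sites, 68.0% (60.2 to 74.8) of exon sites, 53.8% (35.5 to 71.2) of intron sites and 75.7% (74.1 to 77.3) of whole-ORF sites recurred. Exon sites in 4 to 6 lists were A-rich in the 10 nt after the end in 40.2% (30.8 to 50.4) of 92 sites, compared with 20% (17.0 to 23.4) of the 590 sites in 1 list. At the level of genes, 457 of the 829 had members in 1 list and 74 in all 6.

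**Figure D4:**
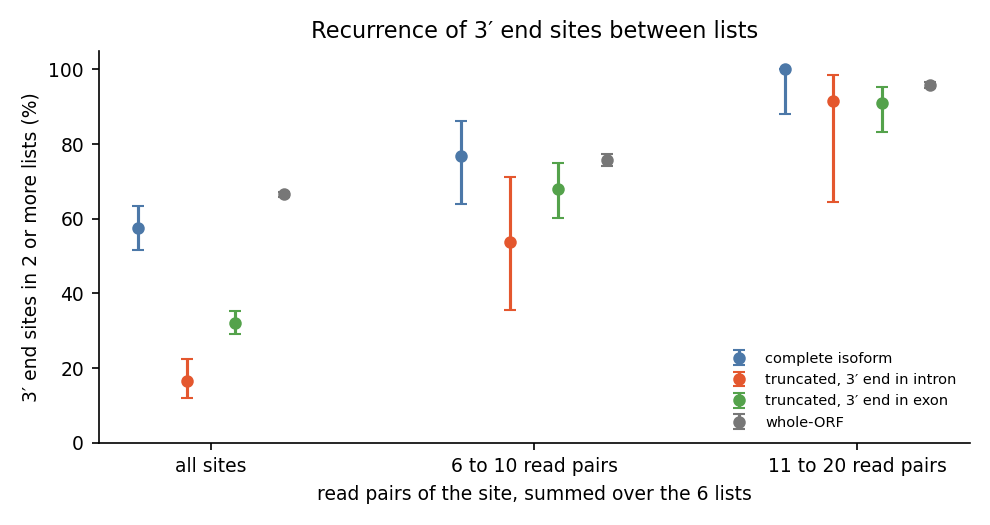
Percent of 3′ end sites held by at least 2 of the 6 lists (y axis), for all sites and for sites with 6 to 10 or 11 to 20 read pairs over the 6 lists (x axis), by class. Bars are 95% Wilson intervals. Intron sites are lowest over all sites (16.6%), and at 6 to 10 read pairs the intron interval (35.5 to 71.2%) still lies below that of whole-ORF sites (74.1 to 77.3%).

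The members' part in the read pairs of a gene depended on how it was counted. Over the 829 genes and all 6 lists together, the members took a median of 6.12% (4.92 to 7.84) of the read pairs of members and whole-ORF TIF-clusters together. Within a single list, over the genes with a member in that list, the median was between 23.7% (*hen2-2* at 22 °C) and 42.9% (*hen2-2* at 4 °C). Over all lists together it was 2.82% (1.49 to 5.26) for genes with intron ends, 4.35% (3.49 to 5.16) for genes with exon ends and 99.1% (64.5 to 100) for genes with a complete isoform. There were 119 genes with members and no whole-ORF TIF-cluster. TIF-clusters with fewer than 3 read pairs are not in the lists, so these are shares of listed read pairs and not of molecules.

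Among the 164 genes with intron ends, 17 had no whole-ORF read pair, and in 6 others members took more than 50% of the read pairs. AT1G56500, AT3G48030, emb2726, BXL1 and GRP7, described next, were among the leading genes by intron-end read pairs and were chosen after the values were seen. AT1G56500, a haloacid dehalogenase-like hydrolase, has 28 exons and ended in intron 7 in all 6 lists. Its intron end had 39 read pairs in wild type, 14 in *hen2-2*, 30 in *spt16-1* and 16 in *ssrp1-2* at 22 °C, and 23 in wild type and 7 in *hen2-2* at 4 °C. Whole-ORF read pairs in the same order were 10, 8, 20, 7, 0 and 3, so the intron end was higher in each list. The end covered 28.2% of the coding sequence and translation would stop after 2 intron codons.

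AT3G48030, a hypoxia-responsive zinc finger family protein, had intron ends with 41, 17, 15, 11, 15 and 8 read pairs in the same order and no whole-ORF read pair in any list. emb2726, an elongation factor Ts family protein that serves translation in the chloroplast, had 24, 9, 39, 19, 25 and 0 read pairs ending in introns. Its whole-ORF read pairs were 119, 93, 142, 91, 76 and 24, so the whole-ORF form was higher in every list. BXL1, a beta-xylosidase of the cell wall, had intron ends with 29 read pairs in *hen2-2* at 22 °C, 5 in wild type at 4 °C and 3 in *hen2-2* at 4 °C, and none in the other lists. Beside its 510 to 1845 whole-ORF read pairs in the 22 °C lists, this was a small part. GRP7, an RNA-binding protein of cold response and the circadian clock, had between 3 and 7 in every list, beside 372 to 1946 whole-ORF read pairs.

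Among the leading genes with exon ends, the member share ranged widely. TIC, a regulator of the circadian clock, ended in exon 2 of its 13 exons, after 54 codons and 3.49% of the coding sequence. Its member read pairs were 78, 42, 120, 51, 75 and 50 in the order used above, and its whole-ORF read pairs were 43, 34, 30, 31, 13 and 11. Members were above whole-ORF transcripts in all 6 lists. The leading TIC TIF-cluster was 352 nt long, close to the lower limit of 350 nt for members. A TIF-cluster with the same 3′ end but a length below 350 nt is not a member. The TIC member counts can therefore depend on this limit, which was not tested for this gene. CXIP4, named for its interaction with a calcium exchanger, had 90, 90, 100, 85, 63 and 50 member read pairs, between 12.7% and 16.8% of the total in every list. AT3G25840, a protein kinase, had 29, 75, 96, 45, 29 and 20 member read pairs and at most 10 whole-ORF read pairs in any list.

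COR47, a dehydrin that accumulates in the cold, had exon ends in AG-rich coding sequence and its member count ranged widely between lists. Its members had 11 read pairs in wild type, 30 in *hen2-2*, 130 in *spt16-1* and 33 in *ssrp1-2* at 22 °C, and 9 in wild type and 141 in *hen2-2* at 4 °C. The member share was 1.07%, 2.44%, 6.85%, 2.63%, 0.688% and 13.8%, beside whole-ORF read pairs between 884 and 1767. Some members covered nearly all of the coding sequence. In *spt16-1*, 53 of the 130 read pairs were in 1 TIF-cluster that covered 99.7% of it. In wild type, 3 of the 11 at 22 °C and 5 of the 9 at 4 °C were at 99.5%. The leading 3′ end site of COR47, with 125 read pairs, was held by 2 lists. BIP1, an Hsp70 chaperone of the endoplasmic reticulum, had 103, 48, 49, 39, 30 and 9 member read pairs, which were 26.8% of the total in wild type at 22 °C and between 9.47% and 17.0% in the others.

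**Figure D5:**
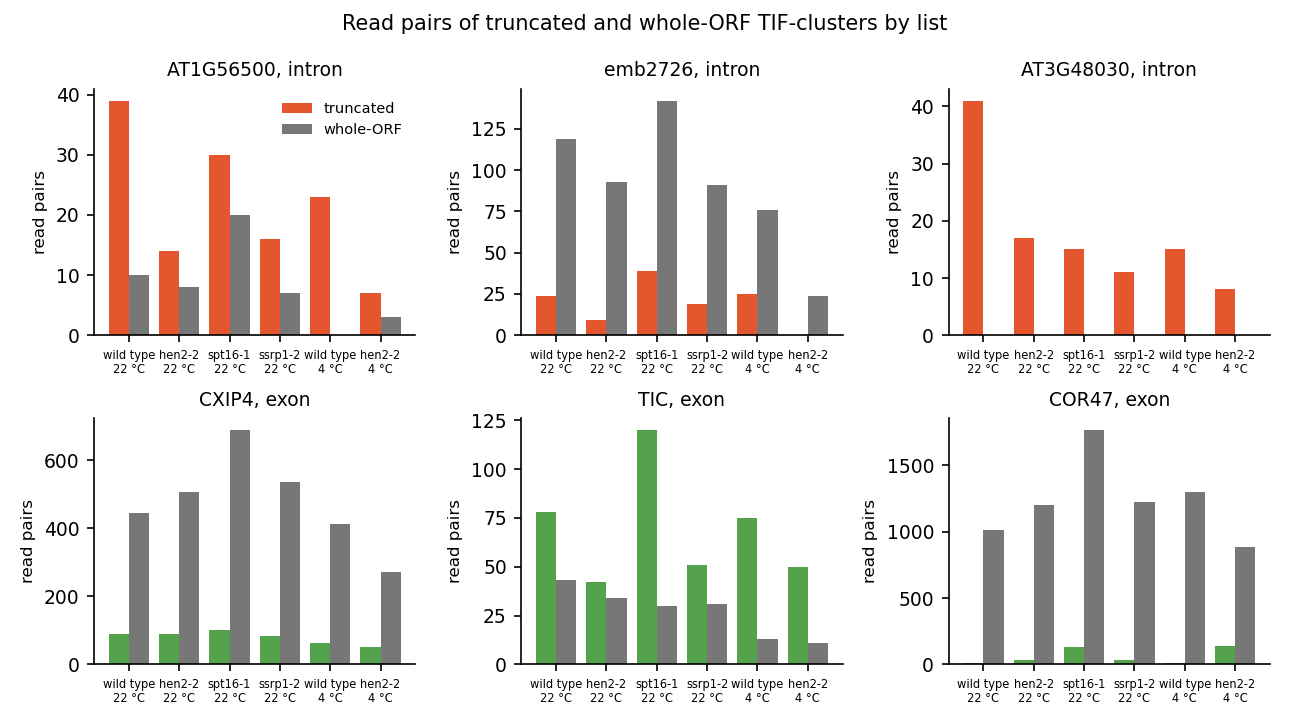
Read pairs (y axis, linear, from 0) of truncated members (coloured) and whole-ORF TIF-clusters (grey) in each of the 6 lists, for the 3 leading genes with intron ends (top) and exon ends (bottom). Members exceed whole-ORF read pairs in AT1G56500, AT3G48030 and TIC in every list, but not in emb2726, CXIP4 or COR47.

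In most of the leading genes of the complete isoform class, the members of that class held nearly all listed read pairs. LHCB2.1 had 4538 member read pairs in wild type, 3607 in *hen2-2*, 4695 in *spt16-1* and 3357 in *ssrp1-2* at 22 °C, and 3826 and 2061 in wild type and *hen2-2* at 4 °C. Its whole-ORF read pairs, which reach the stop codon of the longer isoform, were between 4 and 37. AT4G14320, a zinc-binding ribosomal protein, had 623, 399, 381, 234, 198 and 168 member read pairs and no whole-ORF read pair. UGT88A1, a UDP-glucosyl transferase, had between 191 and 394 and at most 8 whole-ORF read pairs. GHS1, a ribosomal protein S21 family member, had between 115 and 292, CAM7, a calmodulin, between 43 and 100, and HBI1, a bHLH transcription factor, between 26 and 118, each with none. PAA1, a copper-transporting P-type ATPase of the chloroplast, has 17 exons and ended in intron 3, after 23.6% of its longest coding sequence, with between 25 and 65 read pairs and no whole-ORF read pair.

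AT3G10020 and FQR1, a quinone reductase, were exceptions among the leading genes, since their complete isoform members took 4.72% and 10.6% of the read pairs. UGT74D1, another UDP-glucosyl transferase, had between 35 and 85 member read pairs, SRX, a sulfiredoxin that repairs oxidised peroxiredoxin, between 31 and 101, and AT4G18970, a GDSL-like lipase, between 30 and 67. In all, 28 genes had members in all 6 lists and no whole-ORF read pair, so the member share does not rank them, and 5 more are given by order of locus. NTF2B, a nuclear transport factor, had between 24 and 66 read pairs. AT1G28280, a VQ motif protein, had between 20 and 70, AT1G27385 between 6 and 23, C/VIF1, an inhibitor of fructosidase, between 4 and 17, and AT1G76510, an ARID/BRIGHT domain protein, between 5 and 11.

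Some genes had members in a mutant or in the cold and none in the matching list. Such absence was common among low counts, since 44.4% of the genes with member read pairs in *hen2-2* at 22 °C had none in wild type, and 46.6% the other way. Whole-ORF read pairs were absent from the other list in 15.6% and 13.2% of genes. HSP90.1, a heat-inducible chaperone, had 28 member read pairs in *hen2-2*, 8 in *ssrp1-2* and 16 in wild type at 4 °C, and none in the other 3 lists. PHIP1, a protein of the dividing cell plate, had 15 in *hen2-2*, 26 in *spt16-1* and 13 in wild type at 4 °C. AT1G36050, an endoplasmic reticulum vesicle transporter, had 28, 12, 17, 7 and 11 in the 5 lists other than wild type at 22 °C.

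In the other direction, AT3G05936 had 25 member read pairs in wild type and none in *hen2-2* at 22 °C, and AT3G47540, a chitinase family protein, had 24 and none. LHCA2, an antenna protein of photosystem I, had 12 in wild type at 22 °C and none in the other lists, beside 8171 whole-ORF read pairs. MAP2B, a methionine aminopeptidase, had 12 in wild type, 4 in *spt16-1* and 3 in wild type at 4 °C. AT2G22080 had 14 in wild type and none in *hen2-2*. AT1G56660 had 12 read pairs and AT2G30120 had 10 in *hen2-2*, and neither had any in wild type at 22 °C.

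Of the genes with members in *spt16-1* or *ssrp1-2*, 44.8% and 41.2% had none in wild type at 22 °C, as against 16.8% and 14.4% for whole-ORF read pairs. ALDH11A3, an aldehyde dehydrogenase, had 59 member read pairs in *spt16-1*, 6 in *ssrp1-2* and none in wild type at 22 °C. AT4G26630, a DEK domain chromatin protein, had 15 and 22, and AT5G02450, a ribosomal protein L36e, had 20 in *spt16-1* and none in *ssrp1-2*. For the cold, 46.9% of the genes with members in wild type at 4 °C had none at 22 °C, and 44.6% in *hen2-2*, as against 13.4% and 9.96% for whole-ORF read pairs. AT4G33980 had 54 member read pairs in wild type at 4 °C and none at 22 °C. Its whole-ORF read pairs were 36 and 0, so the whole-ORF form was absent from the same list. LTI78, a cold and drought responsive protein, had 15 member read pairs in wild type at 4 °C and none at 22 °C, with 87 and 51 whole-ORF read pairs.

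Of 7 genes known for intronic polyadenylation, 4 had a placed TIF-cluster and 2 of these held a member (50%, 15.004 to 84.996), beside 8.19% (7.67 to 8.74) of all genes with a placed TIF-cluster. IBM1, a demethylase of histone H3, had 5 read pairs in wild type at 4 °C and none elsewhere, ending in intron 8. They belonged to the complete isoform class. AT1G58602, known as RPP7, had 7 in *hen2-2* at 4 °C, which were truncated and ended in intron 1. Of 27 genes for 3′ end formation, 11 had a placed TIF-cluster and 2 held a member (18.2%, 5.14 to 47.7). These were AT4G25550, a subunit of cleavage factor I, with 11 read pairs over 3 lists, and ESP4, a symplekin-like protein, with 6 in 1 list. Of 18 genes for SR splicing factors, 10 had a placed TIF-cluster and 1 held a member (10%, 1.79 to 40.4), SR34 with 3 read pairs. The SR34 member was of the complete isoform class.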

How the data were processed

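Seedling RNA was profiled by TIF-seq in 12 libraries, merged in pairs into 6 tables, and the 6 TSS-seq samples were not analysed here. Each deposited TIF-cluster carries its count of supporting read pairs, without normalization. The authors trimmed reads with cutadapt and UMI-tools, removed reads with runs of A or T, aligned them to TAIR10 with STAR 2.6.1c, kept unique alignments, removed duplicates by molecular identifier, merged the replicates, joined pairs whose ends lie within 20 nt and kept at least 3. They removed TIF-clusters at genomic runs of 6 to 9 A and those with no TSS-seq start. Length depends on both ends, so trimming and clustering can shift an end by some nucleotides.

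Here, genes and isoforms came from RefSeq TAIR10.1 (27444 coding genes, 20613 without overlap). Shares have Wilson intervals, medians have order-statistic intervals, and molecular identifiers do not remove the variation between libraries. No test between lists was made because the replicates are pooled. The members and lists were chosen with earlier results of these data known. Named genes were the 12 with most read pairs, the 8 leading in introns and in exons, the 5 leading in each direction of *hen2-2* against wild type, the 5 in the FACT mutants and the 5 in the cold that lack members in the matching 22 °C list, the first 5 by locus of those tied at the largest share in all 6 lists, and the members of the gene lists. Other named genes were chosen after their values were seen. Alternatives were the gene model, the minimum count, merging, depth, length, the overlap of genes, the distance to the stop codon, A-rich ends, annotated ends and leaving out a list. Scripts used Python 3.11.15, numpy 2.4.6, scipy 1.17.1 and matplotlib 3.10.9, and were tested on simulated data.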

Additional observations from a re-analysis of the deposited data

Results flagged for a closer look

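AT3G10020 moved in opposite directions in *hen2-2* at the 2 temperatures. Its members took 4.65% of the read pairs of members and whole-ORF TIF-clusters in wild type and 1.1% in *hen2-2* at 22 °C, but 0.282% in wild type and 7.3% in *hen2-2* at 4 °C. The members had 60, 12, 4 and 53 read pairs in these lists, beside 1229, 1081, 1415 and 673 whole-ORF read pairs, and another 269 in *spt16-1*. Of the member read pairs, 36, 9, 0 and 53 belonged to the complete isoform class. The leading end of that class covered 100% of the longest coding sequence, so those members were not truncated. The difference was not tested, since each list is a pool of 2 libraries.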

How the results depend on the processing

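No paired analysis was possible because the 2 replicates of each group were merged in the deposited lists. With every list thinned to the smallest total (1 random draw), the log2 ratio of *hen2-2* to wild type changed sign, to 0.0037 at 22 °C and 0.097 at 4 °C. With TIF-clusters merged within 50 nt, the ratio at 4 °C was -0.32. It turned to 0.0050 when short internally terminated TIF-clusters were left out of the placed ones, and to 0.085 per whole-ORF TIF-cluster. The number of members was 1639 with at least 5 read pairs, 2298 after merging, 1884 at equal depth, 5529 with overlapping genes included and 2062 without complete isoforms. The intron share was 22.5% with the first annotated isoform alone, 36.4% with at least 5 read pairs, 27.2% after merging, 36.0% at equal depth, 34.6% from 500 nt, 39.9% with overlapping genes, 37.9% without A-rich ends, 28.4% without annotated ends, 8.06% for introns of every isoform, 14.4% without complete isoforms and 43.5% without ends A-rich at nt 7 to 16. The median coding sequence covered, in the same order up to annotated ends and without equal depth, was 50.4%, 76.4%, 65.6%, 76.0%, 76.6%, 74.7% and 68.2%, and it was 44.9% without complete isoforms and 79.4% without ends A-rich at nt 7 to 16. Recurrence was 30.4% with the first isoform, 47.2% with at least 5 read pairs, 32.1% and 31.9% without A-rich ends in the 2 windows and 29.5% without complete isoforms, and leaving out 1 list gave 32.0% to 35.7%. Usage was 4.51% with the first isoform, 22.4% with at least 5 read pairs, 13.6% at equal depth and 4.28% without complete isoforms. The poly(A) signal share was 1.58% with the first isoform, 3.71% with overlapping genes, 1.21% without complete isoforms and 3.62% without ends A-rich at nt 7 to 16. The cause of these shifts was not tested. The alternatives without complete isoforms, without LHCB2.1, without ends A-rich at nt 7 to 16 and with another denominator were chosen after seeing the data. In 95 other comparisons the value stayed within its interval or within 1.5 times the count. The intron ends had few read pairs, with 3 in 98 of their 164 genes.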
